A study of Mus musculus with 14 samples.

Results

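The genes described here build nicotinamide adenine dinucleotide (NAD) from nicotinamide riboside and other precursors, convert it to its phosphorylated form, or use it in mitochondria. The list held 10 genes: the nicotinamide riboside kinases Nmrk1 and Nmrk2, Nampt, the adenylyl transferases Nmnat1, Nmnat2 and Nmnat3, Nadsyn1, Nadk, Nnt and Sirt3. They were taken by name from the rows of both count tables, each of which held 53735 gene symbols, and 9 of the 10 had a row in each table. Nampt was not analysed here.

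RNA came from whole hearts of male C57BL/6 mice and was sequenced as poly(A)-selected, single-end libraries. Knockout mice (cKO) were Fam210a fl/fl and carried alphaMHCMCM/+, a Cre that tamoxifen switches on and that the alpha-myosin heavy chain promoter confines to cardiomyocytes. Controls carried alphaMHCMCM/+ without the floxed alleles, so that every mouse had the Cre transgene, and the hearts' other cell types should keep Fam210a. Hearts were taken about 5 weeks after tamoxifen (early, 4 cKO and 4 control) and about 10 weeks after it (late, 3 cKO and 3 control), times that the series describes as before and after the loss of cardiac function. The labels give no age, and do not say that each library is a separate animal, so the p-values cover the spread among libraries, which may be technical. Early and late libraries were deposited as separate tables, and levels are not set against each other across them, where time and table cannot be told apart; only the effect of the knockout within a table was compared, and the early and late comparisons share no control.

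NAD carries electrons between metabolic reactions and is also consumed by sirtuins, ADP-ribosyltransferases and hydrolases, so cells rebuild it all the time. In the heart most NAD is salvaged: Nampt turns nicotinamide into nicotinamide mononucleotide, the 2 riboside kinases make the same mononucleotide from nicotinamide riboside, and the adenylyl transferases turn it into NAD. Nmrk1 is found in many tissues, while Nmrk2 is best known from skeletal muscle and is also made in the heart.

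The table totals were 15657298 to 19466469 counts in early and 29989076 to 35750964 in late libraries. Fam210a itself, given as CPM (counts rescaled so that libraries of different depth can be compared, here with factors from the trimmed mean of M-values, TMM), was 170 ± 6.03 in early controls and 146 ± 10.2 in early cKO hearts (SD, n = 4), with no overlap but an edgeR adjusted p of 0.17 (0.0447 by DESeq2); it was 128 ± 7.27 in late controls and 66.8 ± 3.41 in late cKO hearts (SD, n = 3; edgeR adjusted p = 6.5e-05). The library titled early cKO replicate 4 has the control genotype in its genotype field; it was counted as cKO, as its title and description say. Late cKO replicate 3 stood apart from the other 2 late cKO libraries, at a distance from them (mean chi-square over genes) of 107 and 101, where those 2 were 21.5 apart. The atrial gene Bmp10 reached 164 CPM in early cKO replicate 2 and 104 CPM in late control replicate 3, against at most 0.754 CPM in each other library. Myl7, another atrial gene, was at 175 and 111 CPM in these 2 libraries and at 78.8 CPM in late cKO replicate 1. It was at most 21.9 CPM in each other library. The 6 atrial markers summed to 142 to 1000 CPM in late controls and 1762 to 2976 in late cKO hearts. Of these markers, 1 rose late (Nppa, at 1733 to 2621 CPM in late cKO hearts) and 1 was called lower (Bmp10). The Bmp10 call rests on late control replicate 3. The other late controls were at 0 and 0.0942 CPM, below the late cKO hearts at 0.421 to 0.754 CPM. Mitochondrially encoded genes took 24.5% to 26.0% of counts in early controls, 25.6% to 29.4% in early cKO hearts, 19.7% to 22.6% in late controls and 11.2% to 16.0% in late cKO hearts.

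The 2 riboside kinases changed in opposite directions in late hearts, so the sequences just upstream of their genes are shown. Nmrk2 lies at chr10:81198170-81202051 on the minus strand and Nmrk1 at chr19:18631950-18652428 on the plus strand (GRCm38, GENCODE M21). The sequences are from RefSeq windows (GRCm38.p6), 5′ to 3′ on the gene's strand, and end at the base before the annotated gene start: chr10:81202052-81202287 for Nmrk2 and chr19:18631766-18631949 for Nmrk1. Capitals mark the matches to any of 8 motifs searched.
Nmrk2: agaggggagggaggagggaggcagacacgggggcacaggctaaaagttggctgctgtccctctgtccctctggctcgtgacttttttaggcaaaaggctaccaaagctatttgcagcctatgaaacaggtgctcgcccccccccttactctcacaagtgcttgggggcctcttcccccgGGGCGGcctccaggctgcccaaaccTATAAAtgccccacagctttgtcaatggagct
Nmrk1: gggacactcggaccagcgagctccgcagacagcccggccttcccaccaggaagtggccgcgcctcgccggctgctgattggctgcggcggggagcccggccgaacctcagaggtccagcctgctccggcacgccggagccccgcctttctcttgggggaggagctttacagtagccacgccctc
The Nmrk2 sequence holds a TATA box (TATAAA) that begins 32 bases before the gene start and a GC box (GGGCGG) that begins 57 bases before it, and the Nmrk1 sequence holds none of the 8. Searched over both strands of the 250 bases upstream of each RefSeq start, the TATA box was in the window of Nmrk2 and in no window of the other 8 listed genes that had one. The GC box was in the window of Nmrk2 and in a window of Nmnat1, Nmnat3, Nadsyn1, Nadk, Sirt3 and Nampt. Of 32851 windows of all genes, 12.4% hold the TATA box and 32.7% hold a GC box. These shares count windows, whereas a listed gene is named if any of its windows matched. Nadk and Sirt3 each also had a window without the GC box. The other motifs searched were the C/EBP-ATF composite TGATGNAA (in 3.45% of all windows), the cyclic AMP response element TGACGTCA (1.55%), the E-box CACGTG (6.02%, and in a window of Nadk), the AP-1 site TGANTCA (6.75%), the DR1 element, AGGTCA repeated after any base (0.0335%) and the M-CAT motif CATTCCT (4.51%). These matches describe letters and were not tied to the binding of any factor.

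At about 5 weeks, Nmrk2 was the only one of the tested listed genes to pass the test. Of the 9 genes with a row, 8 passed the low-count filter, 1 was higher and 0 were lower at an edgeR adjusted p below 0.05, where 0.613% of the 13529 genes tested were called (0.517% higher, 0.0961% lower); at an unadjusted p below 0.05 there were 2, Nmrk2 and Nmnat1, and DESeq2 also called 1. The median log2 fold change of the 8 was -0.08, against 0.00033 over all genes tested. At about 10 weeks, 9 were tested, 1 rose (Nmrk2) and 4 fell (Nmrk1, Nmnat1, Nmnat3 and Sirt3), where 65.0% of 14942 genes were called (31.8% higher, 33.2% lower). The share called among the listed genes was thus near the share of all genes, with a median of -0.32 against -0.02.

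**Figure D1:**
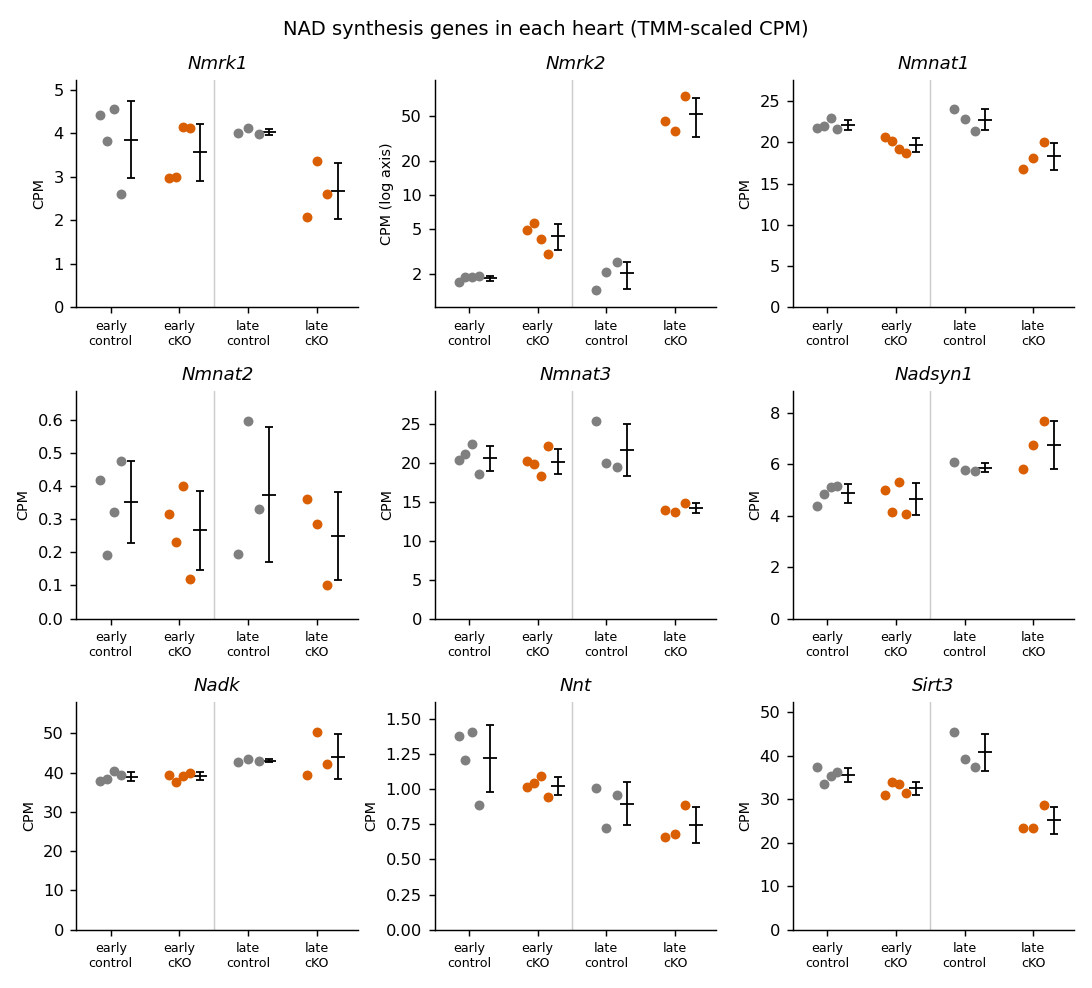
TMM-scaled CPM of the 9 listed genes in each heart, with 1 point per library, grey for control and orange for cKO; the bars give mean and SD, the vertical line separates the 2 tables, and the Nmrk2 axis is logarithmic. Nmrk2 was at 36.5 to 74.1 CPM in late cKO hearts and at 1.43 to 2.52 in late controls. Nadk overlapped between cKO and control within each table, at 37.7 to 40.3 CPM in early hearts and 39.5 to 50.5 CPM in late hearts.

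Nmrk2, the riboside kinase enriched in muscle, rose at both times. In early controls it was at 1.67, 1.85, 1.86 and 1.89 CPM (28 to 32 counts per library) and in early cKO hearts at 4.81, 5.55, 4.03 and 2.95 CPM (50 to 96 counts). Each early cKO heart was above each control, and the lowest of them was replicate 4, the library whose genotype field disagrees with its title. The early change was 2.38-fold (95% interval 1.76 to 3.21; log2 fold change 1.25, SE 0.20, edgeR adjusted p = 0.0121). It was 1.39 on the log2 scale without cKO replicate 4 (edgeR adjusted p = 0.00116) and 1.11 without cKO replicate 2 (0.0364). The early call was lost without control replicate 3 (edgeR adjusted p = 0.0527), and also when all 14 libraries shared 1 fit (0.104). It was close to the threshold without control replicate 1 (edgeR adjusted p = 0.0492), 2 (0.0459) or 4 (0.0473).

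Late controls had Nmrk2 at 1.43, 2.07 and 2.52 CPM (44 to 84 counts) and late cKO hearts at 44.9, 36.5 and 74.1 CPM (1284 to 2163 counts). The groups were far apart, and cKO replicate 3 was the highest heart. The late change was 25.7-fold (95% interval 15.6 to 42.2; log2 fold change 4.68, SE 0.32, edgeR adjusted p = 3.82e-06), and 4.34 on the log2 scale without cKO replicate 3 (edgeR adjusted p = 4.32e-09) and 4.87 without control replicate 3 (2.24e-05). The knockout effect on Nmrk2 was larger late than early by 3.45 on the log2 scale (SE 0.40, edgeR adjusted p = 2.57e-06), or 10.9-fold. In whole-heart RNA, a change in the number of cells of a type and a change in RNA per cell cannot be told apart. The 8 fast skeletal muscle markers summed to 2.55 to 3.03 CPM in late controls and 2.81 to 8.99 in late cKO hearts, with Myh4 at 0 in both groups and Myh2 at 0 in late cKO hearts; of the 3 that could be tested, Tnnt3 rose and Mylpf and Tnni2 fell. The 10 cardiomyocyte markers summed to 67112 to 74846 CPM in late controls and 58524 to 66995 in late cKO hearts, and 2 rose and 4 fell. In early hearts they summed to 65142 to 72445 CPM in controls and 58484 to 64116 in cKO, and 0 were called.

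Part of the Nmrk2 gene is shared with an antisense gene, Atcayos, which was examined after its values were seen. The genes share 270 of the 1854 exon bases of Nmrk2 (14.6%) on opposite strands. The library kit does not mark strand, so reads from the shared stretch cannot be assigned to either gene, and how the counting treated them is not given in the sources used here. Atcayos was at 52.1 ± 5.42 CPM in early controls and 44.2 ± 3.71 in early cKO hearts (SD, n = 4), a log2 fold change of -0.24 (edgeR adjusted p = 0.348), at the time when Nmrk2 rose 2.38-fold. In late hearts Atcayos rose from 46.7 ± 8.95 to 249 ± 7.87 CPM (SD, n = 3), which was 5.34-fold (edgeR adjusted p = 2.49e-06), against 25.7-fold for Nmrk2. What share of the Nmrk2 counts came from Atcayos transcripts was not tested, in controls or in cKO hearts at either time. The Nmrk2 levels, fold changes and ranks given here may therefore depend on how shared reads were counted.

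**Figure D2:**
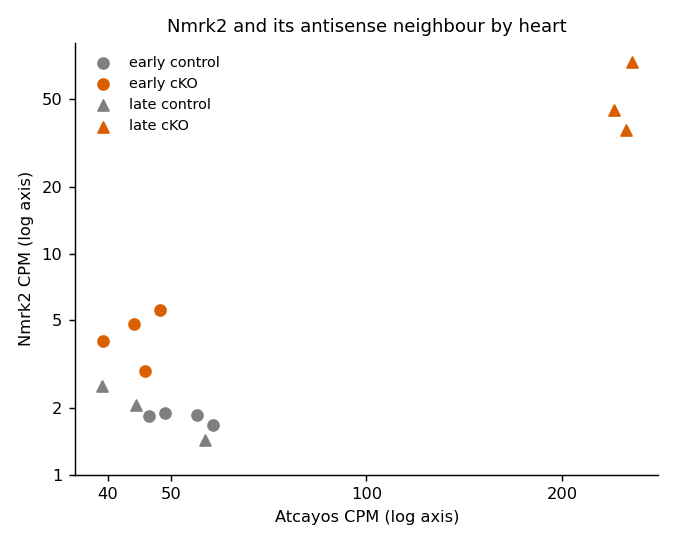
Nmrk2 against its antisense neighbour Atcayos in each of the 14 hearts, both in TMM-scaled CPM on logarithmic axes, with 1 point per library and a marker for each group. Early cKO hearts lay above early controls in Nmrk2 at overlapping Atcayos levels, while late cKO hearts were higher in both.

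Nmrk1, the more widely made riboside kinase, fell in late hearts. Its early levels were 4.42, 3.82, 4.55 and 2.61 CPM in controls and 2.98, 3.01, 4.13 and 4.13 CPM in cKO hearts. The groups overlapped, with a log2 fold change of -0.10 (95% interval -0.52 to 0.31; edgeR adjusted p = 0.909). In late hearts it was at 4.003, 4.12 and 3.99 CPM in controls and at 2.08, 3.35 and 2.603 CPM in cKO hearts. The late groups did not overlap, and Nmrk1 fell by 0.59 on the log2 scale (SE 0.21, edgeR adjusted p = 0.0311). The late call was lost without cKO replicate 1 (edgeR adjusted p = 0.0931) and without control replicate 1 (0.0715), 2 (0.0818) or 3 (0.0703). The late and early effects on Nmrk1 differed by -0.47 on the log2 scale, which did not pass the test (edgeR adjusted p = 0.175).

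Scaled by exon length, the levels of the 2 kinases overlapped in control hearts. As CPM per kilobase of exon, early controls had 1.04 ± 0.241 of Nmrk1 and 0.981 ± 0.0531 of Nmrk2 (SD, n = 4), and late controls had 1.09 ± 0.0190 and 1.08 ± 0.295 (SD, n = 3). On the same scale Atcayos was at 11.9 ± 1.24 in early controls (SD, n = 4) and 10.7 ± 2.04 in late controls (SD, n = 3). Since reads shared with Atcayos cannot be assigned, the level of Nmrk2 and its ratio to Nmrk1 may depend on how those reads were counted. The ratio of Nmrk2 to Nmrk1 per kilobase within a heart was 0.753, 0.962, 0.813 and 1.45 in early controls and 3.22, 3.67, 1.94 and 1.42 in early cKO hearts. All 4 early cKO hearts thus held more Nmrk2 than Nmrk1 per kilobase, but the groups overlapped by 1 heart each. The geometric mean ratio was 2.49 times higher in early cKO hearts (two-sided exact permutation p = 0.0571, n = 4 per group, where the smallest p the design allows is 0.0286). In late hearts the ratio was 0.712, 1.002 and 1.26 in controls and 43.1, 21.7 and 56.6 in cKO, a 38.9-fold difference between groups that did not overlap (two-sided exact permutation p = 0.1, the smallest that 3 against 3 allows).

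**Figure D3:**
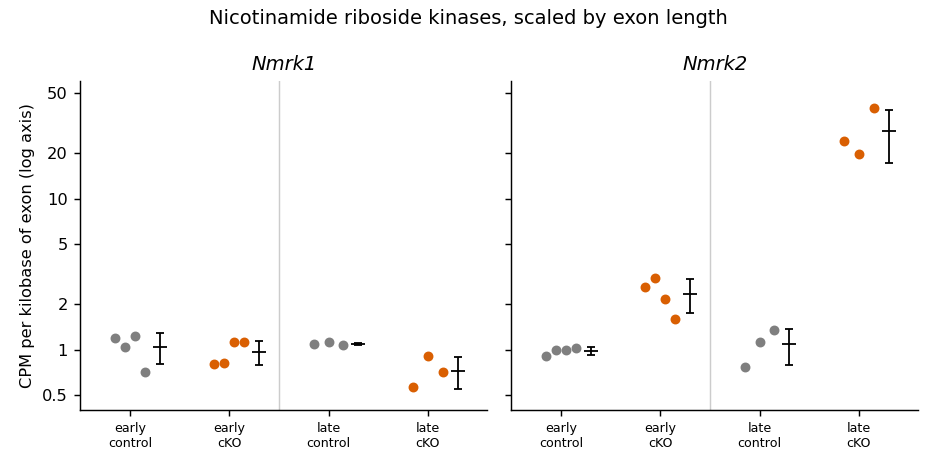
Nmrk1 and Nmrk2 in each heart as TMM-scaled CPM per kilobase of exon on a shared logarithmic axis, with 1 point per library and bars for mean and SD. The kinases were both near 1 in controls, and Nmrk2 reached 28.0 ± 10.6 in late cKO hearts (SD, n = 3).

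The 3 adenylyl transferases, which join the mononucleotide to the adenylyl group of ATP, differed in level and in call. Of the 2 tested early neither passed, where 0.613% of all genes tested were called. Of the 3 tested late 2 fell, where 33.2% of all genes tested were called lower. Nmnat1, the nuclear enzyme (chr4:149467572-149485202, minus strand), was at 21.7, 21.97, 22.9 and 21.6 CPM in early controls and 20.6, 20.1, 19.2 and 18.8 CPM in early cKO hearts. No early cKO heart reached the lowest control, as was true of 2.68% of all genes tested, but the log2 fold change of -0.17 (95% interval -0.31 to -0.02) did not pass the adjusted test (edgeR adjusted p = 0.412). In late hearts it was at 24.0, 22.8 and 21.4 CPM in controls and 16.7, 18.1 and 20.04 CPM in cKO. The late groups were again apart, and Nmnat1 fell by 0.32 on the log2 scale (SE 0.12, edgeR adjusted p = 0.0422), close to the threshold. That call was lost under DESeq2 (adjusted p = 0.0606), with the size factors of relative log expression (edgeR adjusted p = 0.0596), with no low-count filter (0.0831), and without any single late library other than cKO replicate 3 (edgeR adjusted p from 0.0644 to 0.143).

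Nmnat3, the mitochondrial enzyme (chr9:98287435-98420438, plus strand), overlapped between early groups, at 18.6 to 22.4 CPM in controls and 18.4 to 22.2 CPM in cKO (log2 fold change -0.03, SE 0.08, edgeR adjusted p = 0.935). In late controls it was at 25.5, 19.98 and 19.5 CPM and in late cKO hearts at 13.99, 13.7 and 14.9 CPM. Every late cKO heart was below every control, and Nmnat3 fell by 0.61 on the log2 scale (SE 0.14, edgeR adjusted p = 0.00376). The late effect was lower than the early one by 0.56 on the log2 scale (SE 0.15, edgeR adjusted p = 0.00504).

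Nmnat2, the enzyme best known from neurons, was at the edge of detection, with 2 to 8 counts in early and 3 to 19 counts in late libraries. It was filtered out of the early test. Its late log2 fold change was -0.55 with an interval from -1.77 to 0.66 (edgeR adjusted p = 0.387), so a difference was not detectable at this depth.

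Nadsyn1, which makes NAD from its acid form at the end of the tryptophan and nicotinate routes, did not pass the test at either time. It was at 4.36 to 5.15 CPM in early controls and 4.07 to 5.33 in early cKO hearts. Late controls had 6.09, 5.78 and 5.76 CPM and late cKO hearts 5.83, 6.76 and 7.71 CPM, and the groups overlapped (log2 fold change 0.20, 95% interval -0.15 to 0.56, edgeR adjusted p = 0.28). Nadk, the cytosolic kinase that makes NADP from NAD, had the smallest early and late fold changes of the listed genes. Its log2 fold change was 0.0033 early (95% interval -0.12 to 0.13) and 0.03 late (-0.25 to 0.31), with edgeR adjusted p of 0.992 and 0.838. In late hearts it stood at 42.7, 43.5 and 43.0 CPM in controls and 39.5, 50.5 and 42.1 CPM in cKO, where replicate 2 was the highest of the 6.

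Nnt, the inner-membrane transhydrogenase that makes NADPH from NADH in mitochondria, was close to the floor of these libraries. It had 15 to 23 counts in early and 22 to 32 in late libraries. Early controls were at 1.37, 1.21, 1.41 and 0.888 CPM and early cKO hearts at 1.01, 1.04, 1.10 and 0.944 CPM. Late controls were at 1.01, 0.723 and 0.959 CPM and late cKO hearts at 0.662, 0.682 and 0.891 CPM. The groups overlapped at both times, with log2 fold changes of -0.25 (95% interval -0.72 to 0.23, edgeR adjusted p = 0.773) and -0.27 (-0.90 to 0.35, 0.407). The annotation holds 2 overlapping models named Nnt on the minus strand of chr13, at chr13:119335448-119408997 and chr13:119335528-119408952; they share 3339 of the 7037 exon bases of the longer model (47.4%), so how reads were split between them can change the row's level. The C57BL/6J substrain is known to carry a deletion within Nnt, the labels do not name the substrain, and whether these mice carry it was not tested.

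Sirt3, the main protein deacetylase of mitochondria and a consumer of NAD there, fell late. Early controls were at 37.4, 33.5, 35.3 and 36.3 CPM and early cKO hearts at 31.1, 34.0, 33.6 and 31.6 CPM. The early groups overlapped (log2 fold change -0.13, 95% interval -0.27 to 0.01, edgeR adjusted p = 0.52). Late controls had 45.6, 39.4 and 37.5 CPM and late cKO hearts 23.3, 23.4 and 28.8 CPM. The late groups were well apart, and Sirt3 fell by 0.70 on the log2 scale (SE 0.13, edgeR adjusted p = 0.00155). The effect was lower late than early by 0.55 on the log2 scale (SE 0.14, edgeR adjusted p = 0.00241).

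Sirt3 (chr7:140863666-140882309, minus strand) shares 418 exon bases (6.998%) with Ric8a and 342 (5.73%) with Psmd13, both on the other strand and both looked at after their values were seen. In late hearts the row Ric8, an older symbol of Ric8a, rose from 27.3 ± 1.25 to 78.8 ± 10.3 CPM (SD, n = 3, edgeR adjusted p = 1.14e-05). Psmd13 rose from 66.1 ± 5.66 to 185 ± 31.3 CPM (SD, n = 3, edgeR adjusted p = 2.74e-05). Sirt3 thus fell late while both of its overlapping neighbours rose. Reads from these shared stretches cannot be assigned to a gene either. Their share of the Sirt3 counts, and so their bearing on the size of the fall, was not tested.

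Of the 5 late calls, the same genes were the ones whose groups did not overlap, 1 above and 4 below, where 34.0% of genes tested lay wholly above and 35.9% wholly below. In early hearts 1 lay above (2.98% of all genes) and 1 below. The test of late against early effects called 3 of the 8 genes tested (1 higher and 2 lower), where 61.2% of 14555 genes were called (29.8% higher, 31.3% lower). Markers of other cell types moved in both directions in late cKO hearts. The 8 endothelial markers summed to 1034 to 1258 CPM in late controls and 499 to 599 in late cKO hearts, with 7 of 8 lower, and the 10 macrophage markers to 443 to 447 and 230 to 296 CPM, with 8 of 10 lower; none of these markers was at 0. Of 8 fibroblast markers 4 fell and 1 rose, and their sum was 1120 to 1441 CPM in late controls and 729 to 949 CPM in late cKO hearts. All 5 tested red cell markers rose, with the sum of the list at 42.7 to 74.2 CPM in late controls and 196 to 378 in late cKO hearts. Of 8 smooth muscle and pericyte markers 2 rose and 6 fell while their sum was higher in late cKO hearts, at 1229 to 1363 and 1690 to 2416 CPM. Of 7 neuron markers 2 were tested, 1 rose (Tubb3) and 1 fell (Stmn2), with sums up to 11.7 CPM in late controls and up to 39.9 in late cKO hearts. The 7 adipocyte markers summed to 0.414 to 2.15 CPM in early controls and 1.77 to 15.5 in early cKO hearts. Their late sums were 0.976 to 19.3 CPM in controls and 0.227 to 4.96 in cKO hearts. Of these markers 1 was tested early and not called, and of 4 tested late 1 fell (Adipoq). The part of these cell types in the rise of Nmrk2 and the falls of the other listed genes was not tested.

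**Figure D4:**
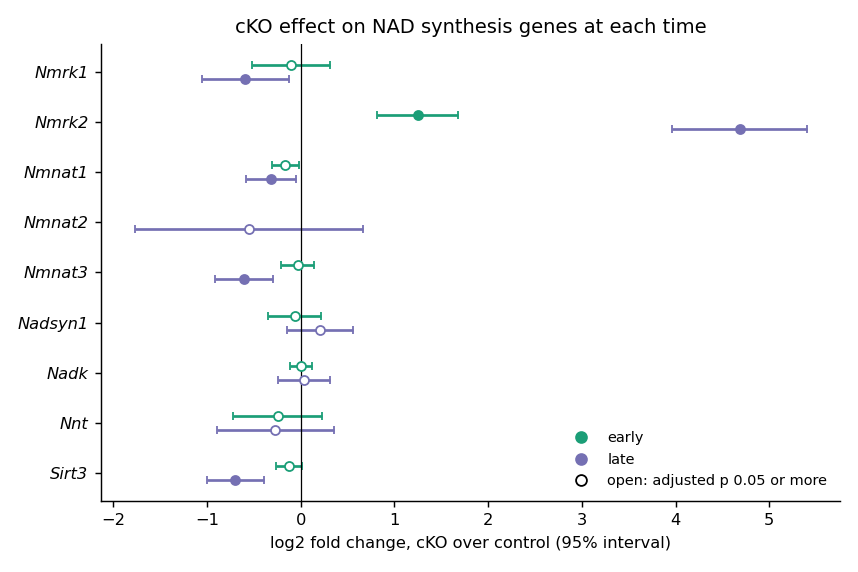
Log2 fold change of cKO over control with its 95% interval for each listed gene, early and late; filled points passed an edgeR adjusted p below 0.05 and open points did not. Nmrk2 lay at 1.25 early and 4.68 late, and the late falls of the other genes lay between -0.70 and -0.32.

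The order of the levels per kilobase of exon was the same in early and late controls. Nadk led at 10.4 ± 0.290 CPM per kilobase in early controls (SD, n = 4), followed by Nmnat1 at 7.26, Sirt3 at 5.96, Nmnat3 at 4.13, Nadsyn1 at 1.47, both riboside kinases, Nnt at 0.173 and Nmnat2 at 0.0607. Neighbours in this order were apart in early controls except Nmrk1 and Nmrk2; in late controls Nmnat1 and Sirt3 overlapped as well, and so did Nnt and Nmnat2. Nmrk2 was the seventh of 9 in controls, the fifth in early cKO hearts at 2.34 ± 0.600 CPM per kilobase (SD, n = 4, overlapping Nadsyn1) and first in late cKO hearts at 28.0 ± 10.6 (SD, n = 3). In late cKO hearts Nadk followed at 11.7, and Sirt3 was at 4.22, Nmnat3 at 2.84 and Nmrk1 at 0.726.

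The genes whose pattern was most like that of Nmrk2 were Adm2, a peptide hormone (Pearson r = 0.991), Sars, a seryl-tRNA synthetase (0.990), Psat1, a phosphoserine aminotransferase (0.990), Phgdh, the phosphoglycerate dehydrogenase (0.990), and Aars, an alanyl-tRNA synthetase (0.989). The likeness was taken over the 14 hearts as log2 CPM centred within each table, among 10973 genes, and the late group difference carries most of it. The highest for Nnt were lower: Nap1l4 (Pearson r = 0.803), Tiprl (0.789), Mfn1 (0.772), Ndufaf1 (0.768) and Cox17 (0.760).

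Other enzymes of NAD metabolism were examined as 4 lists. In early hearts edgeR called 0 of 5 genes of the tryptophan and nicotinate routes, 0 of 8 that release, carry or handle precursors, 0 of 26 NAD consumers and 1 of 10 sources of NADPH; the lists held 1, 2, 2 and 2 genes at an unadjusted p below 0.05, and DESeq2 called 0, 1, 0 and 1. Over all genes tested early, edgeR called 0.613%. The 1 early call was Aldh1l2, the mitochondrial formyltetrahydrofolate dehydrogenase, which rose from 12.5 ± 1.396 to 29.7 ± 6.27 CPM (SD, n = 4, edgeR adjusted p = 0.00171). In late hearts it rose from 8.85 ± 1.149 to 146 ± 37.5 CPM (SD, n = 3, edgeR adjusted p = 1.07e-06).

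Of 13 listed genes of the tryptophan and nicotinate routes, 6 were tested late, 0 rose and 5 fell. Over all genes tested late, 31.8% were called higher and 33.2% lower. The median log2 fold change of the 6 was -1.38 (all genes -0.02). Naprt, which starts NAD synthesis from nicotinate, fell from 20.2 ± 3.26 to 2.05 ± 0.567 CPM (SD, n = 3, edgeR adjusted p = 3.2e-06). Ccbl2, a kynurenine aminotransferase, fell from 32.9 ± 4.05 to 21.1 ± 0.177 CPM, and both groups of the tryptophan-degrading Ido1 were below 1 CPM. Kmo, the kynurenine monooxygenase, was also below 1 CPM in both groups. It had 44 counts over the 3 late controls and 3 over the 3 late cKO hearts. The ratio was 0.0670 with a 95% interval for counting error of 0.0133 to 0.209. Of the precursor genes, 9 were tested late, 2 rose and 4 fell (median -0.51). Nt5e, the cell-surface nucleotidase that can release nicotinamide riboside from the mononucleotide, rose from 12.9 ± 0.479 to 141 ± 8.42 CPM (SD, n = 3, edgeR adjusted p = 1.5e-07). Slc12a8, reported as a carrier of the mononucleotide, rose from 0.709 ± 0.123 to 1.87 ± 0.123 CPM (SD, n = 3, edgeR adjusted p = 0.00075). Pnp, the nucleoside phosphorylase that can split nicotinamide riboside, fell from 9.85 ± 1.62 to 5.02 ± 1.68 CPM (SD, n = 3, edgeR adjusted p = 0.00646), and Nudt13, a mitochondrial hydrolase of NADH, fell from 25.6 ± 2.002 to 10.3 ± 0.979 CPM (adjusted p = 2.64e-05).

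Among the NAD consumers, 26 were tested late, 5 rose and 12 fell (median -0.36). Art1, an ADP-ribosyltransferase of the muscle cell surface, fell from 204 ± 23.1 to 21.1 ± 7.12 CPM (SD, n = 3, edgeR adjusted p = 5.5e-06). The intracellular ADP-ribosyltransferases Parp14, Parp9 and Parp10 fell as well, Parp14 from 35.9 ± 1.45 to 5.15 ± 0.297 CPM, Parp9 from 24.2 ± 2.24 to 6.19 ± 0.811 CPM and Parp10 from 18.4 ± 1.14 to 3.93 ± 0.805 CPM. Of the sources of NADPH, 10 were tested, 5 rose and 4 fell (median 0.33). The cytosolic malic enzyme Me1 rose from 99.8 ± 10.9 to 270 ± 21.7 CPM, and Pgd, of the pentose phosphate pathway, from 33.4 ± 2.17 to 94.6 ± 12.8 CPM. The mitochondrial malic enzyme Me3 fell from 96.5 ± 10.8 to 30.7 ± 4.78 CPM. These counts stand beside the 65.0% of all genes called late, and nothing particular to the lists is drawn from them. Without late cKO replicate 3 the consumers held 5 rises and 15 falls among 27 genes tested.

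**Figure D5:**
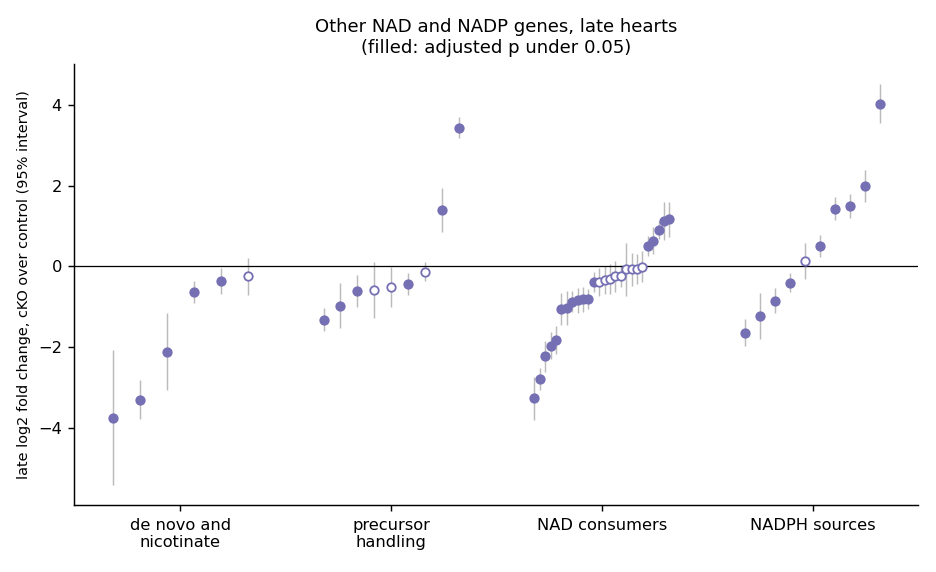
Late log2 fold change of cKO over control with its 95% interval for the tested genes of the 4 lists, with 1 point per gene ordered by size within its list; filled points passed an edgeR adjusted p below 0.05. The tryptophan and nicotinate genes all lay below 0, while the other lists reached from Art1 and Me3 on the low side to Nt5e and Aldh1l2 on the high side.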

How the data were processed

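Total RNA of whole hearts was made into 14 libraries with the TruSeq RNA V2 kit and read as single-end 100-nt reads, per the labels' protocols. Per the submitters' processing notes, Trimmomatic 0.36 and STAR 2.6.0c were used with the GRCm38 genome; which program counted the reads, against which annotation and with which strand setting, is not given in these sources. The authors deposited 2 tables of raw counts per gene symbol, 1 per time, with 8 and 6 libraries.

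Each table was scaled by TMM and filtered with filterByExpr by group, with a count minimum of 10, and tested with edgeR 4.0.16 in R 4.3.3 (quasi-likelihood, Benjamini-Hochberg over all genes tested, calls at an adjusted p below 0.05). A joint fit of all 14 libraries tested late against early effects. The ratio of the kinases was tested by exact permutation. Exon lengths and positions came from GENCODE M21, which held 53.1% of the symbols. Scripts were tested on simulated counts, which held far fewer changed genes than the late hearts. The early test recovered 78% of 1.5-fold and 100% of 3-fold changes. The late test recovered 15% and 96%, and the test of late against early effects 16% and 88%. False calls were 4.30%, 5.93% and 7.96% of the calls in these 3 tests. Alternatives were DESeq2 1.42.0, other scalings, no filter, the replicate block, 1 fit of all libraries, early cKO replicate 4 as a control, and leaving out each library; counts of the pathway lists without late cKO replicate 3 or late control replicate 3 were added after seeing the data. Same-numbered libraries showed no sign of being paired, which does not exclude a pairing that the labels leave out.

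The listed genes and the other lists were chosen with earlier results of these data known. Named were all listed genes, Fam210a, up to 4 genes per pathway list with the smallest late p and any called early, and the 5 genes most like Nmrk2 and Nnt. Intervals for counts cover counting error only. Samples were 4 per early and 3 per late group, and no 2 libraries agreed within sampling noise.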

Additional observations from a re-analysis of the deposited data

Results flagged for a closer look

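The knockout effect differed between the 2 times for 3 of the listed genes by the test of the difference itself (edgeR quasi-likelihood, adjusted over all genes). Nmrk2 was higher late than early by 3.45 on the log2 scale, with all cKO hearts above all controls at both times. The difference was -0.56 for Nmnat3 and -0.55 for Sirt3, both of which overlapped between groups early and were lower in all 3 late cKO hearts. The same test called 61.2% of all genes. For the 9 measured genes and the ratio of the kinases, 20 sets of 4 early values were examined (10 in each early group), and in none was a value far enough from the rest to be singled out; the late groups of 3 were not examined.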

How the results depend on the processing

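Nmrk2, Nmnat3 and Sirt3 kept their late calls in all 13 alternatives run and their late against early calls in all 21. The 83 early calls over all genes became 176 with DESeq2, 162 with early cKO replicate 4 as a control and 388 without the low-count filter, and 45 to 181 when each library was left out; the share of higher calls, 84.3%, became 70.5%, 59.9% and 67.0%. The early count of 1 listed gene was 0 in the fit of all 14 libraries and 0 to 1 when each library was left out. The late count of 5 was 3 with the replicate block, where Nmrk1 (edgeR adjusted p = 0.0567) and Nmnat1 (0.125) were lost, and 3 to 5 when each library was left out. The cause was not tested. With the block, 78 early, 8374 late and 8012 difference calls were made over all genes, and no other listed gene changed its call; same-numbered libraries did not deviate together (r from -0.09 to -0.04 early and from -0.55 to -0.06 late). The effects that changed sign were ones that passed no test in that comparison. Early Nadk was -0.0015 in the fit of all libraries, -0.015 with cKO replicate 4 as a control and -0.010 to 0.020 when each library was left out. Early Nadsyn1 was 0.040 with replicate 4 as a control, and early Nmnat3 was -0.080 to 0.010 when each library was left out. Late Nadk was -0.045 by library totals and -0.067 to 0.113 when each library was left out. The difference for Nadk was -0.046 by library totals and -0.026 to 0.1497 when each library was left out. That for Nnt was 0.028 with DESeq2, 0.030 with relative log expression, 0.036 without the filter and -0.152 to 0.123 when each library was left out. Library totals moved the median of all genes in the difference from -0.01 to -0.10. Depth limits Nmnat2 and Nnt, which had 32 counts or fewer in each library.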
